A study of Mus musculus with 12 samples.

Results

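The genes described here encode the proteins of the mitochondrial ribosome, the machine that translates the few mRNAs of the mitochondrial genome. They are the 78 rows of the count table, of 24100 in all, whose mouse symbol begins with Mrpl or Mrps and a number, and they comprise 49 Mrpl and 29 Mrps genes. The 6 pseudogene symbols of the same form were left out, and 0 of them were listed in the table. RNA was sequenced from mouse embryonic fibroblasts (MEFs) of 2 lines, each from a different mother. Each line had WT cells, which are Rtf2+/+, and RTF2-deficient cells, which carry 1 deleted and 1 floxed allele of Rtf2 (Rtf2-/lox), with 3 libraries per line and genotype and 12 in all. The paper states that it used MEFs of littermates. These alleles are those of the embryos, so WT and RTF2-deficient cells of a line come from different embryos. Genotype and embryo therefore cannot be told apart within a line. Cells of both genotypes were immortalized with SV40, which inactivates p53 and Rb, and received Cre recombinase by retrovirus 72 hrs before harvest, so WT and RTF2-deficient cells share the immortalization and the Cre. The study describes the 3 libraries of a group as technical replicates, and p-values therefore measure how libraries of 1 group scatter, and differences between embryos are covered by the 2 lines alone. The study compared the genotypes to find transcriptional changes that follow loss of RTF2, a protein of the DNA replication machinery.

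The mitochondrial ribosome is built from RNAs encoded in the mitochondrion and from proteins that are all encoded in the nucleus, made in the cytosol and imported. A small subunit reads the mRNA and a large subunit joins the amino acids, and what it makes are core membrane subunits of the oxidative phosphorylation complexes. Part of its proteins descend from those of bacterial ribosomes, and the others were added in mitochondria. Names follow history rather than position: Mrps18a and Mrps30 carry small subunit names and sit in the large subunit, and Mrps36 is a subunit of the alpha-ketoglutarate dehydrogenase complex. By textbook assignment 51 of the 78 genes thus belong to the large subunit and 26 to the small one. By origin 45 were classed as having a counterpart in the bacterial ribosome, 32 as mitochondrial and 1 as not ribosomal. Mrps18a, Mrps18b and Mrpl58 were put in the mitochondrial class although they have relatives among bacterial proteins. The genes lie on 17 chromosomes, with 0 on X or Y.

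Rtf2 itself, the deleted gene, measured 44.8 to 57.8 CPM (counts scaled to a common library size) in the WT libraries and 5.45 to 6.66 CPM in the RTF2-deficient libraries, so all 12 labels fit the deletion. Library totals ran from 39360167 to 44695002 counts. Fibroblast markers were present in every library, from 4849 to 9494 CPM for Col1a1 and from 2156 to 3925 CPM for Vim, while Pdgfra was low at 3.49 to 21.7 CPM. Epcam, Ptprc and Pecam1, markers of epithelial cells, leukocytes and endothelium, stayed at or below 0.308, 0.122 and 0.113 CPM. Some other markers ran higher: Cdh1, also epithelial, reached 2.997 CPM. Of the muscle markers, Des measured 2.698 to 18.27 CPM, Myod1 reached 2.914 CPM and Myog stayed at or below 0.5971 CPM. The cells that these reads come from were not tested. Of 14 markers of other cell types 9 were tested, of which Krt18 (1.22 to 12.4 CPM) and Kdr (6.71 to 15.2 CPM) were called higher in RTF2-deficient cells over both lines and Cd68 (1.44 to 8.95 CPM) lower in line 2, and their part in the results below was not tested. The libraries differed in their interferon response: the median log2(CPM + 0.5) of 12 interferon-stimulated genes ran from 1.43 to 4.33 in WT line 1, from 1.34 to 2.49 in RTF2-deficient line 1, from 5.12 to 9.21 in WT line 2 and from 2.32 to 7.49 in RTF2-deficient line 2. Of 20 S phase genes, 5 were called lower in RTF2-deficient cells over both lines and 0 higher, against 8.18% and 4.98% of all genes tested.

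All 78 mitochondrial ribosomal protein genes were expressed, with between 456 and 3218 counts per gene and library and mean levels from 13.5 to 65.8 CPM. Levels of different genes can be compared only per length, here as counts divided by transcript length and scaled to the same total in each library (TPM-like values). On that scale Mrpl20 was highest at 228.5 ± 21.8 (SD, n = 12 libraries), ahead of Mrpl30 at 160 ± 23.7, Mrps21 at 153.9 ± 18.9 and Mrpl42 at 150.9 ± 12.9. The last 3 overlapped across libraries, and Mrpl20, at 195.3 to 265.3, overlapped with Mrpl30, which reached 220.1. Mrpl52 at 148.9 ± 13.5 and Mrpl33 at 147.2 ± 21.2 followed closely and overlapped with these 3, so the places after Mrpl20 are not firm. Of the 4 highest, Mrpl20 and Mrpl30 are large subunit proteins with bacterial relatives, Mrps21 is one of the small subunit, and Mrpl42 is a large subunit protein found only in mitochondria. The lowest were Mrps25 at 7.19 ± 2.51, Mrpl47 at 9.44 ± 1.21, Mrps35 at 9.85 ± 0.685 and Mrps26 at 11 ± 3. These means pool both lines and both genotypes, and Mrps25 and Mrps26 were lower in RTF2-deficient cells (below). The order and the span of the genes can therefore differ in WT cells alone. The span was 31.8-fold for proteins that mostly enter the ribosome in equal numbers, and the level per length fell with the annotated transcript length (Spearman's rho -0.796 across the 78 genes, which are not independent replicates and whose length enters both measures). The annotated lengths of the 4 lowest genes were 3364 to 6073 bases, against 446.5 to 662 for the 4 highest, so that a gene's place in this order rests on the annotated transcript ends. For Mrps26, the transcript length used is 4278 bases while the RefSeq gene spans only 1638, so its low place depends on the choice of annotation. Within groups the level of a gene varied little, with a median coefficient of variation of 7.57% over the 78 genes against 8.16% over the 3401 genes of similar level. It ran from 2.84% for Mrpl27 to 25.8% for Mrps6.

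Between the genotypes, most of these genes were not called and a few were lower in RTF2-deficient cells. Over both lines, 9 of the 78 genes (11.5%) were lower in RTF2-deficient cells and 0 were higher, with calls made where the Benjamini-Hochberg adjusted p of an edgeR quasi-likelihood fit over 14263 genes was under 0.05. Of all genes tested, 13.2% were called, 8.18% lower and 4.98% higher, so the share of lower genes among the mitochondrial ribosomal protein genes is near that of all genes. The 9 genes were Mrps25, Mrps26, Mrpl38, Mrpl54, Mrpl24, Mrpl2, Mrpl53, Mrps12 and Mrpl58. The median log2 fold change of the 78 genes was 0.01 and that of all genes 0.00, with 38 genes below 0 and 40 above. In all, 38 of the 78 lay within 0.1 of 0 and 68 within 0.25, and 0 lay beyond 1, the study's own fold threshold, which 1.72% of all genes passed together with the adjusted p. The 69 genes that were not called ran from -0.24 to 0.38, with standard errors that were a median of 0.07 over the 78 genes against 0.10 over all genes. At an unadjusted p under 0.05, 15 genes were lower and 3 higher, and DESeq2 called 10 lower and 0 higher, against 9.85% lower and 9.09% higher of all genes. The share of all genes at the unadjusted threshold was not counted, here or below, so these unadjusted counts cannot be set against it. In bulk RNA, fewer cells that express a gene and less of its RNA per cell cannot be told apart. With the 3 libraries of each group summed to 1 sample, which leaves 4 sums, 0 of the 78 genes and 0% of all genes were called, and the adjusted p of the 9 genes lay between 0.102 and 0.258 at nearly the same fold changes.

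**Figure D1:**
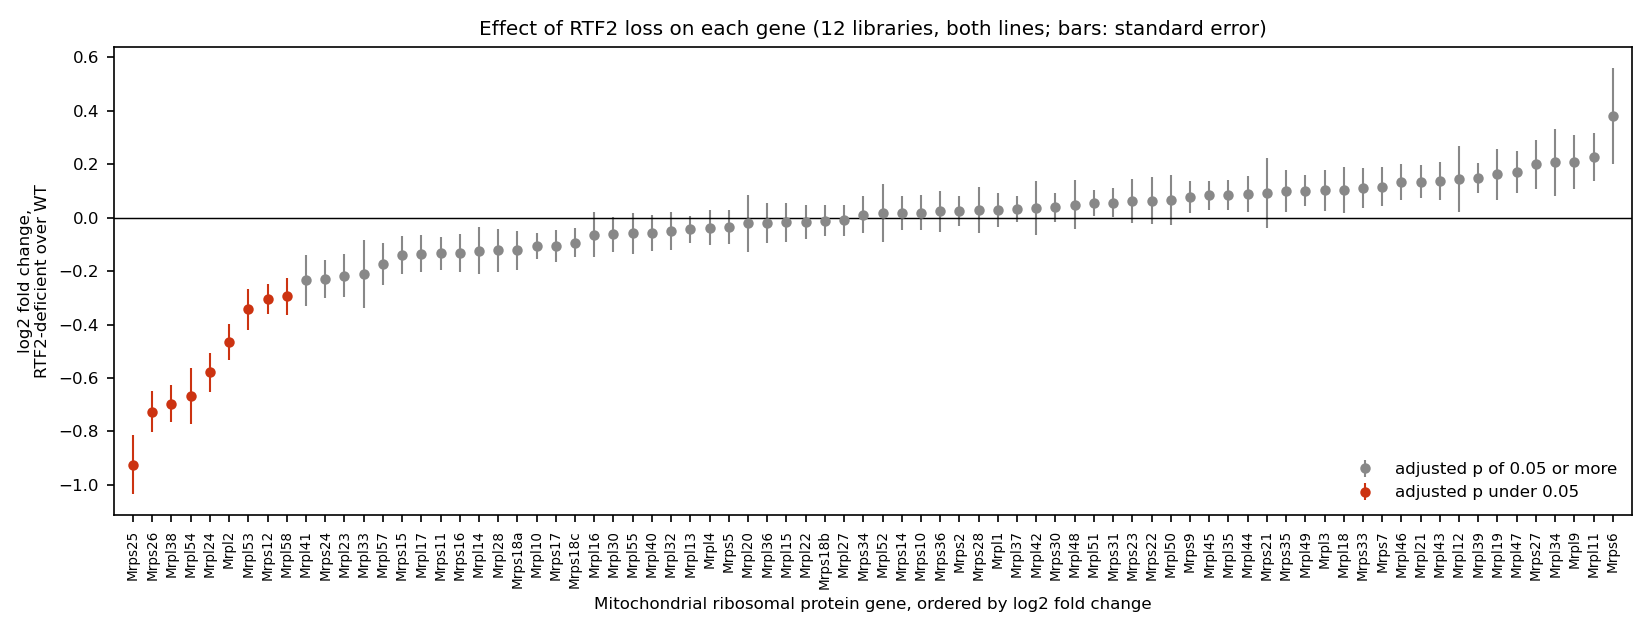
The log2 fold change of each mitochondrial ribosomal protein gene in RTF2-deficient over WT cells is plotted on the y axis, with genes ordered by it along the x axis and bars for the standard error (12 libraries). The 9 red genes passed an adjusted p of 0.05 and lie from -0.92 to -0.29, and the grey genes lie around 0, up to Mrps6 at 0.38.

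Among the genes that fell, 3 are textbook parts of the small subunit.
Mrps25 (chr6:92169512-92184023, GRCm38) encodes a protein that mitochondria added to the small subunit. It measured 19.7, 25.5 and 27.7 CPM in WT line 1 and 11.9, 14.0 and 14.1 CPM in RTF2-deficient line 1. In line 2 it measured 21.2, 30.6 and 28.4 CPM in WT and 14.6, 13.9 and 12.03 CPM in RTF2-deficient libraries. The genotypes did not overlap in either line, and the lowest WT library, at 19.7 CPM, was well above the highest RTF2-deficient one at 14.6 CPM. Mrps25 thus had a log2 fold change of -0.92 (SE 0.111, edgeR adjusted p = 0.000227), or 52.7% of the WT level, which made it the most lowered of the 78 genes in the fit over both lines.
Mrps26 (chr2:130563757-130565394), also a mitochondrial addition to the small subunit, measured 22.5, 25.1 and 28.1 CPM in WT and 14.7, 14.8 and 16.4 CPM in RTF2-deficient cells of line 1. In line 2 it measured 23.0, 30.2 and 27.9 CPM against 17.2, 15.8 and 15.8 CPM. Again no RTF2-deficient library reached a WT library. Its log2 fold change was -0.73 (SE 0.0775, adjusted p = 0.000111), or 60.5% of the WT level.
Mrps12 (chr7:28739641-28741821) encodes the counterpart of bacterial S12, a protein of the decoding centre. Its levels were 21.2, 20.9 and 21.2 CPM in WT and 18.0, 18.0 and 16.5 CPM in RTF2-deficient cells of line 1, and 19.8, 23.8 and 21.4 CPM against 17.5, 16.3 and 17.6 CPM in line 2. The genotypes did not overlap, at a small difference, with a log2 fold change of -0.31 (SE 0.0562, adjusted p = 0.00407).

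In the large subunit 6 genes fell: Mrpl38 and Mrpl58 of the central protuberance, Mrpl54 and Mrpl53 of the stalk that binds translation factors, Mrpl24 near the exit tunnel and Mrpl2.
Mrpl38 (chr11:116131817-116138868) encodes a mitochondrial protein of the central protuberance, the crown of the large subunit. It measured 26.2, 31.9 and 33.7 CPM in WT and 19.4, 18.9 and 21.6 CPM in RTF2-deficient cells of line 1, and 36.2, 36.8 and 34.0 CPM against 20.4, 20.9 and 21.04 CPM in line 2. The groups did not overlap, and the 6 RTF2-deficient libraries lay close together. Mrpl38 had a log2 fold change of -0.70 (SE 0.0689, adjusted p = 6.64e-05), or 61.7% of the WT level.
Mrpl58 (chr11:115403724-115412674) encodes a peptidyl-tRNA hydrolase of the release factor family that is built into the large subunit. It measured 18.6, 20.7 and 21.2 CPM in WT and 16.0, 16.3 and 17.1 CPM in RTF2-deficient cells of line 1, and 17.05, 22.3 and 20.03 CPM against 16.8, 15.2 and 16.3 CPM in line 2. Here WT line 2 replicate 1, at 17.05 CPM, lay below the highest RTF2-deficient library of line 1. The log2 fold change of Mrpl58 was -0.29 (SE 0.0693, adjusted p = 0.0165), and without RTF2-deficient line 2 replicate 2 the adjusted p was 0.0507.

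Both called genes of the stalk region, Mrpl54 and Mrpl53, encode proteins classed as mitochondrial.
Mrpl54 (chr10:81264722-81266926) measured 31.4, 35.5 and 31.6 CPM in WT and 23.7, 22.6 and 20.9 CPM in RTF2-deficient cells of line 1, and 28.9, 44.4 and 31.6 CPM against 21.4, 18.2 and 21.4 CPM in line 2. WT line 2 replicate 2 stood apart at 44.4 CPM, and the other 5 WT libraries still lay above every RTF2-deficient library. Mrpl54 had a log2 fold change of -0.67 (SE 0.104, adjusted p = 0.00137), and without that library it was -0.56.
Mrpl53 (chr6:83109108-83109932) measured 23.3, 22.3 and 24.2 CPM in WT and 17.2, 16.2 and 15.7 CPM in RTF2-deficient cells of line 1. In line 2 the groups overlapped, at 18.8, 22.4 and 19.7 CPM against 18.8, 16.4 and 18.6 CPM. The log2 fold change of Mrpl53 was -0.34 over both lines (SE 0.0771, adjusted p = 0.0125), and its exons lie wholly within those of Gm42688 on the same strand, so reads of the 2 genes cannot be told apart.
Mrpl24 (chr3:87918131-87923450), the counterpart of a bacterial protein that starts assembly near the exit tunnel, measured 32.2, 29.8 and 33.3 CPM in WT and 25.0, 20.1 and 23.0 CPM in RTF2-deficient cells of line 1, and 33.6, 37.5 and 34.4 CPM against 20.5, 20.97 and 24.8 CPM in line 2. Mrpl2 (chr17:46646172-46650132), the counterpart of bacterial L2 at the peptidyl transferase centre, measured 26.3, 28.6 and 31.0 CPM in WT and 22.6, 23.4 and 19.6 CPM in RTF2-deficient cells of line 1, and 30.9, 32.7 and 33.0 CPM against 22.0, 20.6 and 23.9 CPM in line 2. For both genes the 6 libraries of each genotype did not overlap. The log2 fold changes were -0.58 for Mrpl24 (SE 0.0740, adjusted p = 0.000377) and -0.47 for Mrpl2 (SE 0.0666, adjusted p = 0.000779).

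**Figure D2:**
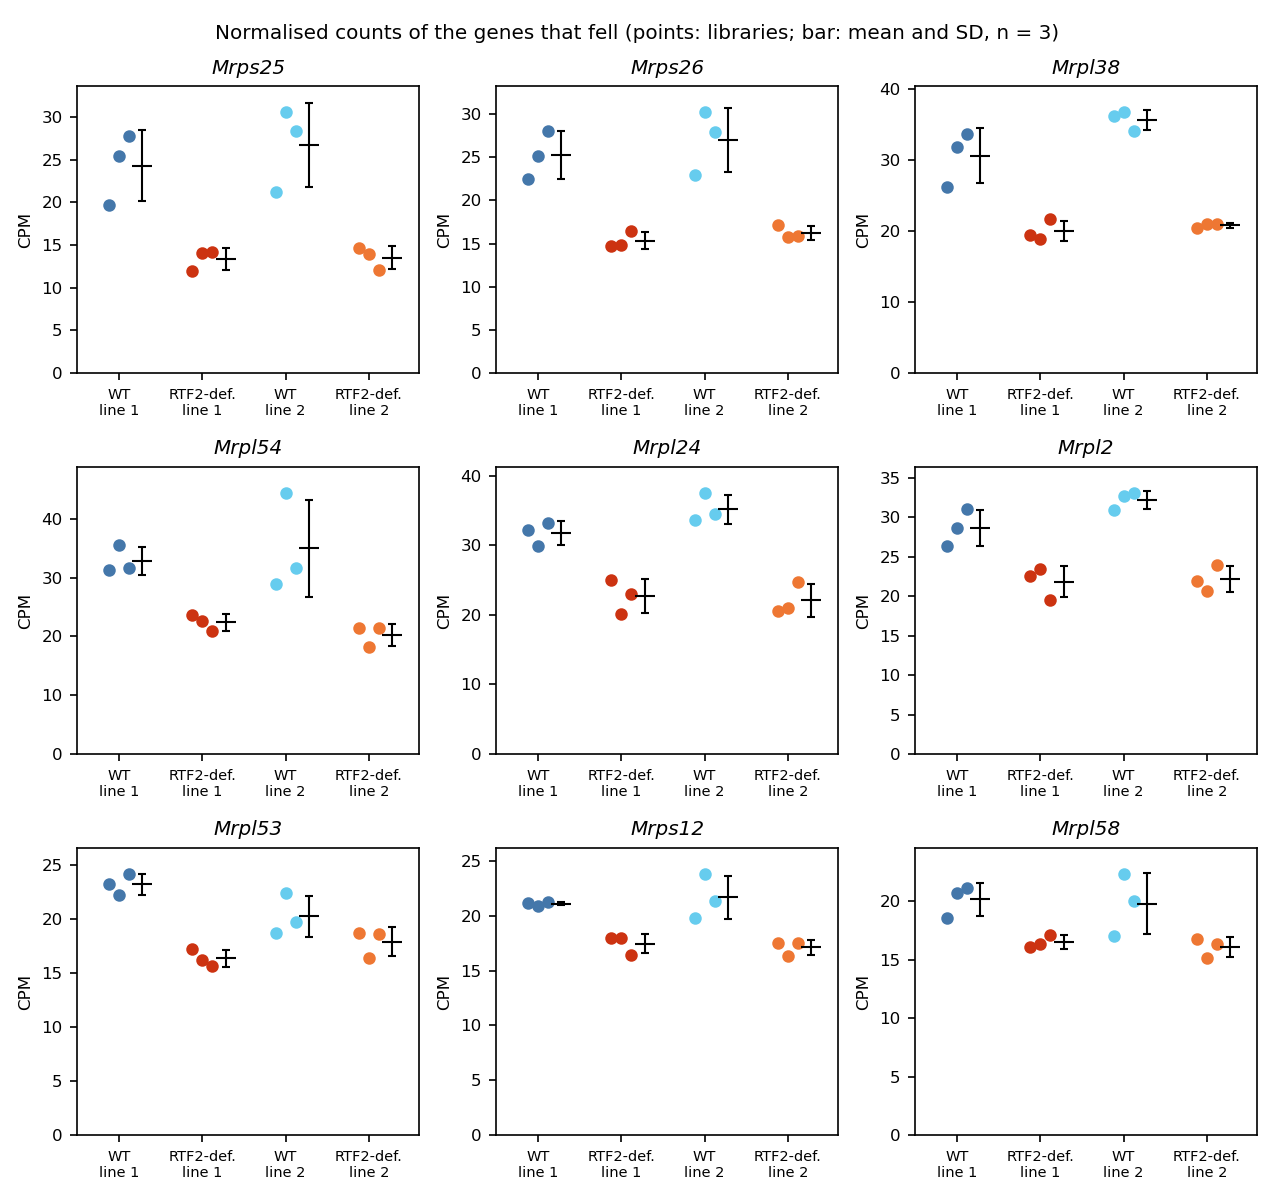
Normalised counts (CPM, y axis from 0) of the 9 genes that fell are plotted for each library (points) of the 4 groups on the x axis, with the mean and SD of 3 libraries as bars. In 7 of the 9 panels every RTF2-deficient point lies below every WT point, and in the panels of Mrpl53 and Mrpl58 the points overlap.

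As examples of the sequence before the start of called genes, the promoters of Mrps25, Mrps26, Mrpl24 and Mrpl2 are shown, 4 of the 5 genes called lower in both lines in the fit of the 4 groups (Mrpl24 and Mrpl2 were not called with line 1 fitted alone). They are windows from 250 bases before to 50 bases after the RefSeq start, on GRCm38 and 5′ to 3′ on the gene's strand. RefSeq's table held a window for 69 of the 78 genes and for 7 of the 9 that fell, and none was matched for Mrpl38. Capitals mark matches on either strand to motifs named for factors that act on genes of mitochondrial function or on many promoters: CCGGAAG (ETS, the family of GABPA), GCGCA followed directly by its reverse complement TGCGC, and the shorter form TGCGCA (NRF1), AAGATGGCG (YY1), CACGTG (E-box), CCAAT and GGGCGG (GC box). TGCGCA can overlap the longer NRF1 motif. The start used for Mrpl24 lies 1413 bases inside the gene's RefSeq span, and starts upstream of it were not searched.
Mrps25, chr6:92183974-92184273, minus strand: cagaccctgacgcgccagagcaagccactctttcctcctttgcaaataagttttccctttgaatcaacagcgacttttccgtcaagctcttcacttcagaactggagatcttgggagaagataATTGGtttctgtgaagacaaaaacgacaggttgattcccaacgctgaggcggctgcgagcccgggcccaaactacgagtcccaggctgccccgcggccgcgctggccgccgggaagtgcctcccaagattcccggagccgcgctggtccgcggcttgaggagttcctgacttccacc
Mrps26, chr2:130563507-130563806, plus strand: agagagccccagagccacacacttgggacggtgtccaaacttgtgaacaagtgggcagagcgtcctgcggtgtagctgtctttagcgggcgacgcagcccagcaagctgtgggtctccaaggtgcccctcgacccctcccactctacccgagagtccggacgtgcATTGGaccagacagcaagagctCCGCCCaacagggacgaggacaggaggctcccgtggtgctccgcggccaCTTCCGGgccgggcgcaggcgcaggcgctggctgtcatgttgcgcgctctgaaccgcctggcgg
Mrpl24, chr3:87919294-87919593, plus strand: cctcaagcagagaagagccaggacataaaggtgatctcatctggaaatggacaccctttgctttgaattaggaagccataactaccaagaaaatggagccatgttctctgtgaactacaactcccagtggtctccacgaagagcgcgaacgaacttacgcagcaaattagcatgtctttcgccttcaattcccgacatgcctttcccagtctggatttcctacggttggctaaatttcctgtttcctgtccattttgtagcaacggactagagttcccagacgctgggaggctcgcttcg
Mrpl2, chr17:46645971-46646270, plus strand, the first of 3 listed starts: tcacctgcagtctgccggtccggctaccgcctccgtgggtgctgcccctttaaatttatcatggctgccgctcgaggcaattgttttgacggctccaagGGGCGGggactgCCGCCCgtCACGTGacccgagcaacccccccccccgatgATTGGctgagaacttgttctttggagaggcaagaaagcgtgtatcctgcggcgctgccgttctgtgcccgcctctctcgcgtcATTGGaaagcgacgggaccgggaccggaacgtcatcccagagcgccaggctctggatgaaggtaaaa
The 4 windows share no motif of the list in common: Mrps25 holds 1 CCAAT box, Mrps26 holds 1 ETS motif, 1 CCAAT box and 1 GC box, Mrpl24 holds 0 of the motifs, and Mrpl2 holds 1 E-box, 2 CCAAT boxes and 2 GC boxes. Over the 69 genes with a window, 37.7% held the ETS motif, against 18.8% of 11248 tested genes and 9.93% of all 27025 genes with a window. The YY1 motif was found in 11.6%, against 3.31% and 1.64%, the NRF1 motif in 4.35%, against 2.16% and 1.07%, and its shorter form in 30.4%, against 15.1% and 8.79%. CACGTG, at 7.25% against 11.5% and 8.09%, and CCAAT, at 39.1% against 42.9% and 41.1%, were no more frequent than elsewhere. GGGCGG was found in 49.3%, against 67.9% of tested genes and 38.2% of all. Of the 7 genes that fell and have a window, 5 held CCAAT, 4 the ETS motif, 3 GGGCGG, 1 TGCGCA and 1 CACGTG, and 0 held the YY1 motif or the longer NRF1 motif. A match is a description of letters and not of a bound factor.

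By subunit the called genes were 6 of 51 in the large and 3 of 26 in the small subunit, with median log2 fold changes of -0.02 and 0.02. Of the genes classed as having a counterpart in the bacterial ribosome 3 of 45 were lower, and of those classed as mitochondrial 6 of 32. By region of the large subunit they were 2 of 8 at the central protuberance, 2 of 5 in the stalk, 1 of 9 at the exit tunnel, 0 of 1 in the L1 stalk and 1 of 28 elsewhere. These are counts in small classes that were not tested against each other or against all genes, of which 8.18% were called lower.
Mrps18a, Mrps18b and Mrps18c, which descend from 1 bacterial protein and now occupy different places, stayed near the WT level with log2 fold changes of -0.12 (SE 0.0721), -0.01 (SE 0.0574) and -0.09 (SE 0.0536). Mrps18a measured 20.97 to 27.6 CPM in the 6 WT and 18.4 to 25.3 CPM in the 6 RTF2-deficient libraries. Its genotypes overlapped in line 1 and were apart in line 2, at 25.4 to 27.6 CPM in WT and 24.2 to 25.3 CPM in RTF2-deficient libraries, while those of Mrps18b and Mrps18c overlapped in each line.
Mrps6, a small subunit protein with a bacterial relative, had the highest log2 fold change at 0.38, with a standard error of 0.179 and an adjusted p of 0.189. It measured 30.9, 55.8 and 47.9 CPM in WT and 42.9, 68.2 and 52.4 CPM in RTF2-deficient cells of line 1, and 35.3, 51.0 and 39.9 CPM against 76.6, 55.1 and 44.1 CPM in line 2. The libraries of each genotype were spread over a range as wide as the difference. The Mrps6 locus holds Slc5a3, a myo-inositol transporter gene with which it shares 18.8% of its exon bases, and it shares 36.1% with Gm49711 on the same strand. Slc5a3 had a log2 fold change of -0.07 (SE 0.198).
By their raw separation, 8 of the 78 genes (10.3%) had no overlap of the genotypes with RTF2-deficient libraries the lower, against 4.41% of all genes tested, and 0 had the RTF2-deficient libraries the higher, against 1.56%. They were 7 of the 9 called genes and Mrps24, a small subunit protein named here after its values were seen, with a log2 fold change of -0.23 (SE 0.0705, adjusted p = 0.0524). Mrps24 measured 17.9 to 23.9 CPM in WT and 15.7 to 17.9 CPM in RTF2-deficient libraries, a gap at the edge of what the values resolve.

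The 2 lines, which are the study's biological replicates, were then taken apart. In line 1, 6 of the 78 genes (7.69%) were lower, against 2.52% of all genes, and 0 were higher, against 0.68%. These were Mrps25, Mrps26, Mrpl38, Mrpl24, Mrpl2 and Mrpl53. In line 2, 7 genes (8.97%) were lower, against 7.03% of all genes, and 0 were higher, against 5.42%, with Mrpl54 and Mrps12 in place of Mrpl53. At an unadjusted p under 0.05, 9 genes were lower and 0 higher in line 1, and 11 lower and 1 higher in line 2. DESeq2 called 7 lower and 0 higher in each line, against 4.22% lower and 1.82% higher of all genes in line 1 and 9.58% and 8.62% in line 2. In this fit of the 4 groups, whose libraries share 1 estimate of the spread, Mrps25, Mrps26, Mrpl38, Mrpl24 and Mrpl2 were called lower in both lines, 5 of 78 or 6.41%, against 2.18% of all genes, and 0 were called higher in both, against 0.28%. With the 6 libraries of line 1 fitted alone, Mrpl24 (adjusted p = 0.05789) and Mrpl2 (adjusted p = 0.1019) were not called, and Mrps25, Mrps26, Mrpl38, Mrpl53 and Mrpl54 were, against 2.11% of all genes called lower. With line 2 fitted alone Mrps12 was not called (adjusted p = 0.1006) and the other 6 genes were, against 4.17% of all genes. Without the filter on low counts, Mrpl2 lost its call in line 1 and Mrps12 in line 2, and Mrpl2 also lost it without the libraries of highest interferon score (adjusted p = 0.05475). Their log2 fold changes in lines 1 and 2 were -0.87 and -0.98 for Mrps25, -0.72 and -0.73 for Mrps26, -0.61 and -0.78 for Mrpl38, -0.49 and -0.67 for Mrpl24, and -0.39 and -0.54 for Mrpl2. That all are below 0 follows from how they were chosen. Mrpl53 fell by 0.51 in line 1 (adjusted p = 0.0116) and had a log2 fold change of -0.18 in line 2 (adjusted p = 0.220). The test of the difference between the lines called 0 of the 78 genes, at a smallest adjusted p of 0.430, against 1.29% of all genes, with 1 gene at an unadjusted p under 0.05 and 0 in DESeq2. Of the 78 genes, 62 (79.5%) had the same sign in both lines, against 69.8% of all genes, and 10 (12.8%), against 6.42% of all genes, had the RTF2-deficient libraries apart from and below the WT libraries within each line, among them Mrps24 and, named after its values were seen, Mrpl23, an exit tunnel protein with log2 fold changes of -0.17 and -0.26. In 12 fits that each left out 1 library, Mrps26 and Mrpl38 stayed called in both lines. Mrps25 lost its call in line 1 in 4 of these fits, Mrpl53 in 3, Mrpl24 in 6 and Mrpl2 in 12, and Mrps12 lost its call in line 2 in 4. Line 1 kept 3 lower genes when any of its WT libraries or replicate 3 of its RTF2-deficient libraries was left out, and 2, Mrpl38 and Mrps26, when replicate 2 of the latter was, against 1.15% to 1.59% and 1.1% of all genes called lower in these fits.

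Libraries of line 1 with the same replicate number deviated together, with correlations of 0.616 to 0.745 over all genes between the WT and RTF2-deficient libraries, so line 1 was also fitted alone with the replicate number as a block, a choice made after seeing the data. With that pairing 12 of the 78 genes were lower and 4 higher in line 1, against 14.7% lower and 14.4% higher of all genes, so the share of lower genes was near that of all genes. The 12 held the 6 genes above with Mrpl54, Mrpl58, Mrps12, Mrps24, Mrpl33 and Mrpl41, and the 4 were Mrps6 at 0.29, Mrpl21 at 0.19, Mrpl11 at 0.19 and Mrpl49 at 0.13, with adjusted p of 0.006842, 0.01849, 0.01765 and 0.04858. In the 4-group fit without a block, Mrps6 had an adjusted p of 0.742 in line 1. With a block over all 12 libraries, which does not match the RTF2-deficient libraries of line 2, 5 genes were lower and 0 higher in line 1, against 2.01% and 0.491% of all genes, Mrpl2 being lost at an adjusted p of 0.0914.

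**Figure D3:**
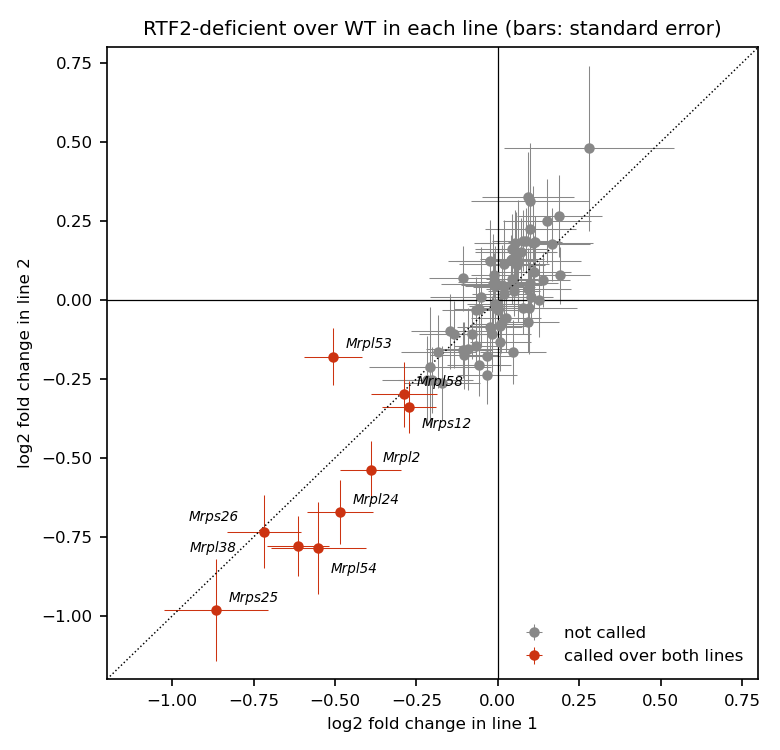
Each point is 1 mitochondrial ribosomal protein gene, with its log2 fold change of RTF2-deficient over WT in line 1 on the x axis and in line 2 on the y axis, bars for the standard errors and a dotted line of equality. The genes called over both lines, in red, lie at the lower left, Mrpl53 lies off the line of equality at -0.51 and -0.18, and the grey genes cluster around 0.

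For comparison with the effect of RTF2 loss, WT cells of line 2 were set against WT cells of line 1. Of the 78 genes 3 (3.85%) were higher in line 2 and 0 lower, whereas 14% of all genes were called, 6.7% higher and 7.31% lower. Mrpl22, an exit tunnel protein, measured 15.0, 16.3 and 16.2 CPM in WT line 1 and 19.2, 22.5 and 18.6 CPM in WT line 2, a log2 difference of 0.34 (SE 0.0931, adjusted p = 0.0329). Mrpl30 measured 39.4, 41.9 and 47.0 against 59.7, 52.4 and 48.5 CPM, with a log2 difference of 0.32 (adjusted p = 0.0403). Mrps30, the mitochondrial protein of the large subunit with a small subunit name, measured 29.2, 30.1 and 32.5 against 35.9, 38.6 and 36.6 CPM, with a log2 difference of 0.28 (adjusted p = 0.0407). The libraries of the WT lines did not overlap for these genes, and 55 of the 78 differences were above 0 with a median of 0.07, against 0.02 for all genes, and that median ran from 0.00 to 0.13 when 1 library was left out. The calls were not firm, since Mrpl22 lost its call in 9, Mrpl30 in 10 and Mrps30 in 11 of the 12 fits that left out 1 library. With the replicate number as a block (the deviations of same-numbered WT libraries correlated at 0.375 to 0.467), Mrpl22 alone was called over all 12 libraries, against 6.28% of all genes higher and 6.75% lower, and 0 genes were called with the WT libraries alone, against 8.68% and 8.87%. The interferon score averaged 2.69 ± 1.48 in WT line 1 and 7.14 ± 2.04 in WT line 2 (SD, n = 3). Cell type markers differed between the WT lines as well: of 7 fibroblast markers, Col1a2, Pdgfrb and Thy1 were lower in line 2, by 0.63, 0.94 and 0.62 on the log2 scale, and the other 4 were not called, with Pdgfra at a log2 difference of 1.28 (adjusted p = 0.0816). Of the 9 tested markers of other cell types, Krt8, Krt18 and Cd68 were higher and Myod1 lower. Over the 12 libraries Krt8 was near the floor at 0 to 0.334 CPM, and Myod1 had a median of 0.0717 CPM and a maximum of 2.914 CPM. The part of the interferon score and of these markers in the differences was not tested. Between the RTF2-deficient lines 0 of the 78 genes were called by edgeR, against 1.94% of all genes, with 7 at an unadjusted p under 0.05 and 1 called by DESeq2.

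Summed over all 78 genes, the level was 2345 ± 188 CPM in WT line 1 and 2307 ± 121 CPM in RTF2-deficient line 1, and 2461 ± 254.5 CPM in WT line 2 and 2421 ± 133 CPM in RTF2-deficient line 2 (SD, n = 3). The Mrpl genes made up 1560 ± 122, 1529 ± 74.5, 1621 ± 172 and 1593 ± 78.7 CPM of this in the same order, and the Mrps genes 785 ± 66.4, 779 ± 46.6, 840 ± 82.6 and 828 ± 54.6 CPM. The genotypes thus differed by less than the SD in each line. Libraries of a group differed more than the genotypes did, the highest sum being 1.11 to 1.23 times the lowest. WT line 2 replicate 2, with a sum of 2731 CPM, was the highest of the 12 libraries for 43 of the 78 genes, and WT line 1 replicate 1, at 2151 CPM, was the lowest for 23. In 4 of 4 groups the library with the highest interferon score had the lowest sum, and that same library was lowest in the summed cytosolic ribosomal protein genes and in the summed oxidative phosphorylation genes. What sets these libraries apart was not tested. Without the library of highest interferon score in each group, 8 libraries being left, 10 genes were lower and 0 higher over both lines, against 9.4% and 5.76% of all genes, and they were all 9 genes and Mrps24 (log2 fold change -0.28, adjusted p = 0.04193).

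**Figure D4:**
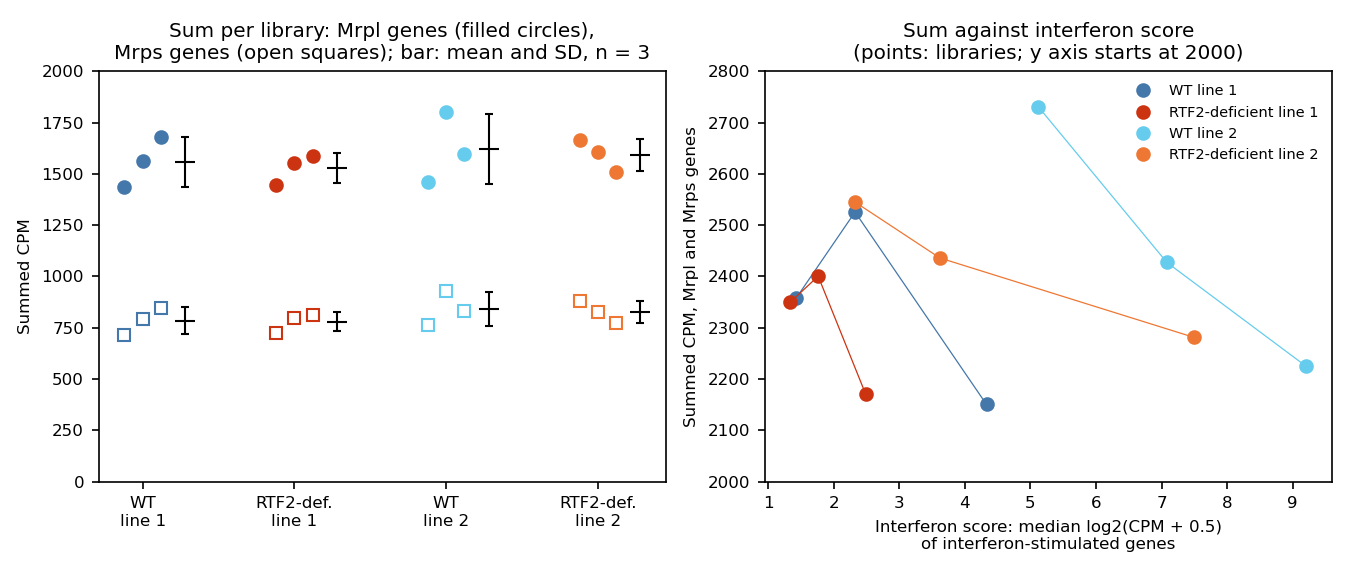
Left, the summed CPM of the Mrpl (filled circles) and Mrps genes (open squares) is plotted for each library of the 4 groups on the x axis, with the mean and SD of 3 libraries, and the groups overlap. Right, the summed CPM of all 78 genes (y axis, not from 0) is plotted against the interferon score of the library (x axis, log2 scale), with libraries of a group joined, and in each group the library farthest to the right is the lowest.

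The genes that fell were described by features that the choice of genes had not used. Their transcripts had a median GC content of 53.96%, against 49.9% for the 69 genes not called, and medians of 55% for all genes called lower, 47.74% for all called higher and 49.87% for all others. Across all genes the share called lower rose from 2.89% in the lowest of 5 equal bins of GC content to 16.8% in the highest, while the share called higher went from 6.71% to 3.16%. The highest bin, from 56.05% up, held 11 of the 78 genes, of which Mrpl38, Mrpl54, Mrpl2 and Mrps12 were lower. Spearman's rho of the log2 fold change with GC content was -0.167 across the 78 genes and -0.222 across 13471 genes, which share libraries and depth and are not independent. Mrps25, Mrps26, Mrpl24 and Mrpl58, at 45.08%, 49.16%, 49.44% and 49.81%, lay below the median of the genes not called. With a GC trend of each library taken out, a choice made after seeing the data, 7 of the 9 genes stayed called, against 6.47% of all genes then called lower, and Mrpl53 (-0.25, adjusted p = 0.0909) and Mrps12 (-0.17, adjusted p = 0.109) were not. The introns of the 9 genes had a median length of 471.5 bases, against 1220 for the genes not called, and all genes showed the same order, at 602.5 for those called lower and 1630 for those not called.

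**Figure D5:**
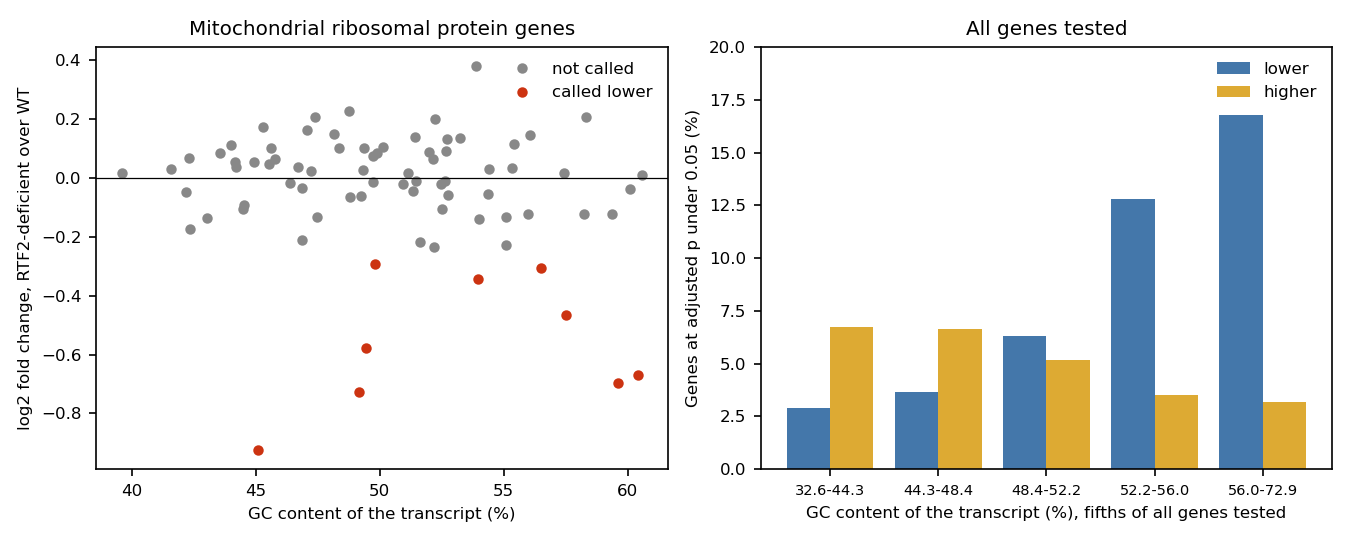
Left, the log2 fold change of each mitochondrial ribosomal protein gene (y axis) is plotted against the GC content of its transcript (x axis, percent), with the 9 genes called lower in red, from Mrps25 at 45.08% to Mrpl54 at 60.43%. Right, bars from 0 give the percent of all genes tested that were called lower or higher in each of 5 bins of GC content, the lower share rising from 2.89% to 16.8%.

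Many of these genes share a start region or exons with a neighbour, which bears on what their counts measure, because the strand setting of the counting is not given in the sources used here. In all, 23 of the 78 have a divergent protein-coding partner. Mrpl54 starts 26 bases from Apba3, an adaptor protein gene, and both fell, Apba3 by 0.56 on the log2 scale (SE 0.0671, adjusted p = 0.000221). The partners of Mrps12 and Mrpl2 did not pass the test: Sars2, the mitochondrial seryl-tRNA synthetase gene 172 bases away, had a log2 fold change of -0.10 (SE 0.0603), and Klc4, a kinesin light chain gene 207 bases away, one of 0.09 (SE 0.150). Mrps25 shares 58.2% of its exon bases with Nr2c2 on the opposite strand, and Nr2c2 had a log2 fold change of 0.03 (SE 0.0586). Mrpl24 shares 38.2% with Rrnad1, also on the opposite strand, which had one of -0.03 (SE 0.0876). The part of these overlaps in the counts of Mrps25 and Mrpl24 was not tested. Mrps26 and Mrpl58 share under 1% of their exon bases with an antisense gene.

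The genes that work with the mitochondrial ribosome were read from lists chosen for this purpose, in the fit over both lines. Of all genes tested in that fit, 8.18% were called lower and 4.98% higher. Cytosolic ribosomal protein genes gave 0 calls among 75 tested, with a median log2 fold change of 0.03, and nuclear genes for oxidative phosphorylation subunits gave 8 lower and 0 higher among 81 tested, with a median of -0.01. The 6 mitochondrial ribosome proteins with other names, such as Dap3 and Ptcd3, gave 0 calls, at log2 fold changes from -0.11 to 0.21.
Among 16 translation factors 1 was lower. This was Metap1d, the mitochondrial methionine aminopeptidase, which trims the first methionine of new proteins. It measured 6.22 to 6.26 CPM in WT line 1 and 2.04 to 2.60 CPM in RTF2-deficient line 1, and 6.21 to 7.36 CPM in WT line 2 and 1.76 to 2.98 CPM in RTF2-deficient line 2. The groups lay far apart, with a log2 fold change of -1.51 (SE 0.130, adjusted p = 2.3e-05), larger in size than that of any of the 78 genes.
Of 27 assembly factors 2 were lower and 2 higher. Rpusd3 (-0.44, SE 0.105, adjusted p = 0.0176), a pseudouridine synthase, and Mrm3 (-0.32, SE 0.0704, adjusted p = 0.0117), a methyltransferase of the large ribosomal RNA, were lower. Eral1, a chaperone of the small ribosomal RNA, rose by 0.40 (SE 0.0462, adjusted p = 0.000173), from 16.6 to 18.1 CPM in WT to 20.99 to 23.6 CPM in RTF2-deficient libraries, and Ybey, an endoribonuclease that acts on the small subunit, rose by 0.33 (SE 0.0892, adjusted p = 0.0304), a call lost in 5 of the 12 fits with 1 library left out, with the replicate block (adjusted p = 0.05524) and without the libraries of highest interferon score (adjusted p = 0.08245).
Of 20 genes for mitochondrial aminoacyl-tRNA synthetases and the related amidotransferase, 4 were lower, among them Ears2 at -0.53, Vars2 at -0.26 and Tars2 at -0.18, and Aars2 was higher at 0.30. The calls of Tars2 and Aars2 were each lost in 9 of the 12 fits with 1 library left out. Of 12 genes of mitochondrial transcription and mRNA upkeep, Polrmt, the mitochondrial RNA polymerase (-0.36, SE 0.0663, adjusted p = 0.0044), and Top1mt, the mitochondrial topoisomerase (-0.31, SE 0.0645, adjusted p = 0.00846), were lower and 0 were higher. With the GC trend taken out, Rpusd3, Mrm3, Vars2, Polrmt and Top1mt were not called.
Of 12 regulators of mitochondrial gene expression, among them Nrf1 (-0.04, SE 0.0546), Gabpa (-0.02, SE 0.0458) and Yy1 (0.03, SE 0.0370), 0 passed the test.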

How the data were processed

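RNA of MEFs was sequenced in 12 libraries, and per the methods the authors made gene counts with Salmon and tximport on UCSC mm10 models, while the submitters' notes name HTSeq and mm10. The deposited whole-number read counts per gene were used as they stand. Totals were 39360167 to 44695002 per library, where 3 counts equal at most 0.0762 CPM. Genes passing filterByExpr (14263) were TMM-normalized and fitted in edgeR 4.0.16 (limma 3.58.1, R 4.3.3) by the quasi-likelihood test, with line and genotype as additive terms or with the 4 groups, and Benjamini-Hochberg adjusted p-values under 0.05 were called. All adjusted p-values are edgeR's unless DESeq2 (1.42.0) is named. Lengths, GC content and overlaps came from GENCODE M21, and positions, symbols (24045 identifiers matched) and promoters from RefSeq GRCm38.p6. No pair of libraries within a group agreed within sampling noise (chi-square per degree of freedom 20.9 or more).

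Named genes were the called members with 1 sign in both lines (8 at most in each direction), those called between lines, the 4 highest and lowest per length, the Mrps18 paralogs, Mrps6 and called members overlapping other genes, up to 4 called genes per list and direction, and Rtf2. Mrpl58, Mrps24, Mrpl23, Mrpl9, Mrpl34, Mrpl17, Mrps16, Mrpl52, the genes called only under a block, the GC-bin genes and the features' examples were named after their values were seen. The members and lists were chosen with earlier results of these data known. Replicate numbers pair libraries in line 1 (same-number correlations 0.616 to 0.745) and between the WT lines (0.375 to 0.467), but not in line 2 (-0.678 to 0.217). There the RTF2-deficient libraries correlated best with WT libraries of another number (0.519 to 0.713), so the block over 12 libraries does not match them. A gene that the rule names is not reported here.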

Additional observations from a re-analysis of the deposited data

How the results depend on the processing

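The 9 lower genes over both lines kept their direction under the alternatives run. The count fell to 0 with the triplicates summed, and to 0 over both lines, in line 1 and in line 2 with the study's fold threshold added. Leaving out 1 library gave 8 to 10 lower genes over both lines (5.68% to 8.29% of all genes), 2 to 6 in line 1 (1.1% to 2.51%), 6 to 9 in line 2 (3.11% to 9.14%) and 2 to 5 in both lines. The main fit called 2.18% of all genes lower in both lines, a share that was not counted for the alternative fits. Genes higher in line 2 then ranged from 0 to 1 (Mrpl34, without WT line 2 replicate 2, against 3.96% of all genes). Without the highest interferon scores 1 gene (Mrpl9) was called higher in line 2, against 8.84% of all genes. That fit also called Mrpl17, Mrpl58 and Mrps16 lower in line 2 besides the genes of the main fit, against 12.1% of all genes called lower. With the replicate block fitted in line 1 alone, 12 genes were lower and 4 higher there, and the block over 12 libraries kept 9 lower genes over both lines. Lower in both lines were then 4, Mrpl2 being lost. Between the WT lines, the 3 higher genes became 0 without the filter (4.37% of all genes), 1 with the replicate block (6.28%), 0 with it in the WT libraries alone (8.68%) and 0 without the highest interferon scores (6.88%), and leaving out 1 library gave 0 to 3 higher and 0 to 1 lower (Mrpl34).

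Small fold changes changed sign. With GC correction they were 0.0151 for Mrps18a, 0.0499 for Mrps18b and 0.0335 for Mrpl20, and without the highest interferon scores 0.00856 for Mrps18b and -0.0413 for Mrpl42. Leaving out 1 library, they ran from -0.0398 to 0.0250 for Mrps18b, from -0.0823 to 0.0514 for Mrpl20 and from -0.0191 to 0.108 for Mrpl42. Summing the triplicates leaves 4 samples, and adding the fold threshold removes changes under 1 by construction. The cause of the other shifts was not tested.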
